A study of Homo sapiens with 6 samples.

Results

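Expression of the galectins and of the galectin-3-binding protein gene *LGALS3BP* was measured by RNA-Seq in the established human endometrial cancer line AN3CA, which expresses *PAX2*. The rule named 9 genes, *LGALS3BP*, *LGALS1*, *LGALS3*, *LGALS4*, *LGALS7*, *LGALS8*, *LGALS9*, *LGALS12* and *LGALSL*. Of these, 7 were found among the 17471 genes listed, and *LGALS7* and *LGALS12* were not analysed here. The genes were chosen with their response to *PAX2* knockdown (KD) already known, so their shPAX2 and shEV values are given as a description and carry no test.

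The control group, shEV, held 3 libraries of cells carrying the empty lentiviral vector pGFP-C-shLenti, which the labels give as WT. The KD group, shPAX2, held 3 libraries of cells carrying a 29-mer short hairpin RNA against *PAX2* in that vector. Both groups were grown in MEM with FBS and selected with puromycin, and total RNA was made into stranded libraries. A single hairpin was used, the study elsewhere calls the AN3CA control scrambled, and nothing in the labels says that the libraries came from separate cultures, so the spread between them may be technical.

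Galectins are lectins that bind beta-galactosides, above all the N-acetyllactosamine (LacNAc) units on the glycans of cell surface and matrix proteins. They are made in the cytosol, leave the cell without a signal peptide, and cross-link glycoproteins outside it, while inside the cell they bind glycans that become exposed when a lysosome or endosome breaks. *LGALS3BP* encodes no galectin but a secreted, heavily glycosylated protein with a scavenger receptor cysteine-rich (SRCR) domain, which carries glycans for galectin-1 and galectin-3, binds matrix proteins and integrins, and is known as an interferon-inducible gene.

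The promoters are shown here because *LGALS3BP*, unlike the other members with a promoter entry, held a match to the core of the interferon-stimulated response element (ISRE), searched on both strands as GAAA followed by 2 bases of any kind and GAAA again. Each line gives the 250 bases before the RefSeq transcription start in GRCh38.p14, 5′ to 3′ on the gene's strand, with ISRE core matches in capitals. Among the members abundant enough to be tested, *LGALSL* is the other whose groups did not overlap. *BST2* and *IFI6* are interferon-stimulated genes, and *PARP14* is the interferon-stimulated gene whose pattern over the libraries came closest to that of *LGALS3BP*.
*LGALS3BP* promoter, chr17:78979924-78980173, minus strand: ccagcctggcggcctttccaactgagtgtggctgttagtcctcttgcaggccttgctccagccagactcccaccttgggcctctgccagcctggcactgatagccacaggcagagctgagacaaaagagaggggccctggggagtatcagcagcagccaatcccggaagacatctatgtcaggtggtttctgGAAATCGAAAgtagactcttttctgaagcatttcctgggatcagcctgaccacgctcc
*LGALSL* promoter, chr2:64453912-64454161, plus strand: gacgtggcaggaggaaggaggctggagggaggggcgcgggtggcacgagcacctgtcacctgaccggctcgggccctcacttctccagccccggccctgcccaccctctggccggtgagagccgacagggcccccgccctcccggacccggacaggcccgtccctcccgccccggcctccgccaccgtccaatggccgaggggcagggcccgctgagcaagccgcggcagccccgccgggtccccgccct
*BST2* promoter, chr19:17405631-17405880, minus strand: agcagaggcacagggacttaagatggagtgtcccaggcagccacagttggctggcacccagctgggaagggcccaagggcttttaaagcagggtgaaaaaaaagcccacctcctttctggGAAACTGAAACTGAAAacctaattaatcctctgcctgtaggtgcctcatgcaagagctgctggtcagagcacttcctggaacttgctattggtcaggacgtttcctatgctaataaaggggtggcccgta
*IFI6* promoter, chr1:27672193-27672442, minus strand: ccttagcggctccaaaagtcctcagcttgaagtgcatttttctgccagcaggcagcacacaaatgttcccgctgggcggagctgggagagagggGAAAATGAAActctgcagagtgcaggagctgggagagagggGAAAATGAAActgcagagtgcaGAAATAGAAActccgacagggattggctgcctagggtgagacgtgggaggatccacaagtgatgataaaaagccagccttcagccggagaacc
*PARP14* promoter, chr3:122680589-122680838, plus strand: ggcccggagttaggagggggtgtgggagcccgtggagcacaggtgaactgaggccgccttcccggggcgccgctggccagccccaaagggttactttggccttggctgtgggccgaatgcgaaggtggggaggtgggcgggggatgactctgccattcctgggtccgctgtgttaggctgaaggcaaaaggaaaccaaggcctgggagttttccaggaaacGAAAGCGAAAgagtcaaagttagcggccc

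The ISRE core was present in 3.02% of the 35116 promoter entries of that length. It was found in 1 of the 7 members with an entry, *LGALS3BP*, where it began 58 bases before the start. These members include *LGALS7*, while *LGALS1* and *LGALS12* had no entry and were not searched. In the interferon-stimulated list described later, 16 of the 24 genes with an entry held the ISRE core. *BST2* had 2 overlapping matches, *IFI6* had 3 and *PARP14* had 1, which began 29 bases before the start. The *LGALS3BP* promoter held 4 CpG dinucleotides, against 24 in *LGALSL*, 32 in *LGALS3* and a median of 11 over all entries. A paired-box core, GCGTGAC, occurred in 2.20% of entries, and no member with an entry had it in this window. A match is a run of letters and was not tested as a binding site.

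*PAX2* itself was read at 4.03, 3.66 and 2.74 TPM (reads scaled by gene length and by library total) in shEV and at 0.916, 0.723 and 1.17 TPM in shPAX2. The groups did not overlap, and the log2 fold change was -1.47 ± 0.18 (SE, n = 3 per group, limma adjusted p = 0.000294). Fold changes here and in what follows are differences of log2(TPM + 0.5), shPAX2 minus shEV. Reads recovered from the TPM values totalled 10730909 to 18221859 in the control libraries and 19422615 to 29405787 in the KD libraries, so each KD library was deeper than each control library.

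The label of these cells as uterine epithelium was compared with marker genes. Among 9 listed epithelial markers, *KRT7*, *KRT19*, *ESRP1* and *ELF3* had 3 reads or fewer in every library, only *KRT18* was abundant enough to be tested, and the summed level was 10.9 to 13.3 TPM in shEV and 12.3 to 18.0 TPM in shPAX2. The leukocyte marker *PTPRC* and both listed endothelial markers were likewise at 3 reads or fewer. The summed level of 4 leukocyte markers was 1.77 to 1.91 TPM in shEV and 1.79 to 3.09 TPM in shPAX2, and that of the endothelial markers was at most 0.0611 TPM in any library. The 4 listed fibroblast markers summed to 811 to 858 TPM in shEV and 362 to 441 TPM in shPAX2, which was mostly *COL1A2* and moved with the main result given next. Mean levels in shEV and shPAX2 were 836 and 390 TPM for *COL1A2* and 1.02 and 0.888 TPM for *COL1A1*. For *PDGFRB* they were 1.04 and 0.724 TPM, and for *PDGFRA* 0.252 and 0.0703 TPM. *COL1A1* and *PDGFRB* did not pass the test. The part of these markers in the main result was not tested. In bulk libraries, fewer cells of a type and less RNA per cell cannot be told apart.

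*LGALS3BP* was the member that differed most. Its levels were 88.5, 80.0 and 82.1 TPM in the shEV libraries and 17.7, 18.0 and 17.8 TPM in the shPAX2 libraries. The groups lay far apart, each within a narrow range. The mean was 83.5 ± 4.44 TPM (SD, n = 3) in the controls and 17.8 ± 0.171 TPM (SD, n = 3) after KD, which is 21.3% of the control level, and the log2 fold change was -2.20 ± 0.06 (SE). The recovered reads behind these levels were 1074, 1598 and 1675 in the controls and 612, 549 and 392 after KD, so that the KD libraries held fewer *LGALS3BP* reads in spite of their greater depth. A fit to these reads in place of TPM gave a log2 fold change of -2.20.

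Set against all 13163 genes tested, *LGALS3BP* ranked 1934th by level in shEV and 6883rd in shPAX2. Its log2 fold change was the 65th lowest, and 0.858% of tested genes had a larger absolute value. The coefficient of variation between libraries was 5.31% in shEV and 0.957% in shPAX2, where the median tested gene had 6.57% and 6.90%. With 3 libraries per group such a spread is itself uncertain, and nothing is read from it. The median log2 fold change over all tested genes was -0.10, and relative to that median *LGALS3BP* stood at -2.09. The gene lies at chr17:76967320-76976029 on the minus strand of GRCh37.

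**Figure D1:**
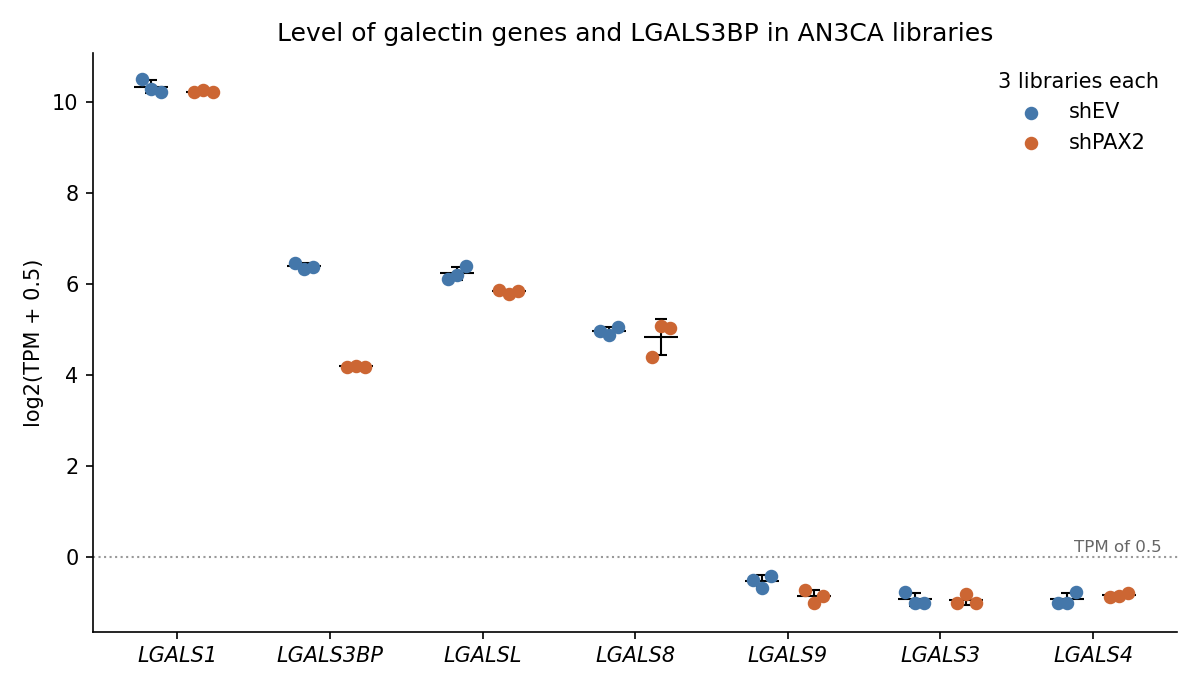
Level of each listed member in every library, as log2(TPM + 0.5), with 1 point per library (shEV blue, shPAX2 orange), a dash at each group mean and bars of 1 SD. *LGALS3BP* moved from 80.0 to 88.5 TPM in shEV to 17.7 to 18.0 TPM in shPAX2, *LGALS1* was at 1186 TPM or more in all 6 libraries, and *LGALS3*, *LGALS4* and *LGALS9* lay below the dotted line at 0.5 TPM in every library.

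*LGALS1*, which encodes the small dimeric galectin-1 known for its action on T cells and on cell adhesion to matrix, was by far the most abundant member. Its levels were 1449, 1250 and 1193 TPM in shEV and 1191, 1227 and 1186 TPM in shPAX2. The highest value was that of shEV replicate 1, and the groups overlapped. The means ± SD (n = 3 each) were 1297 ± 134 TPM in shEV and 1201 ± 22.7 TPM after KD, with a log2 fold change of -0.11 ± 0.08 (SE) that was 0.0068 after median-of-ratios scaling. Relative to the median of all tested genes the difference was -0.0037. The gene, at chr22:38071643-38075809 on the plus strand, ranked 80th by level in shEV and 89th in shPAX2.

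*LGALSL* encodes the galectin-related protein, which has the galectin fold and for which binding to lactose has not been found. Its levels were 68.5, 73.2 and 83.8 TPM in shEV and 57.9, 55.0 and 57.6 TPM in shPAX2. All KD libraries were lower than all control libraries, though the lowest control and the highest KD library lay close. The means were 75.2 ± 7.83 TPM and 56.8 ± 1.57 TPM (SD, n = 3 each), and the log2 fold change was -0.40 ± 0.08 (SE), or -0.28 after median-of-ratios scaling. Relative to the median of all tested genes it was -0.29. The gene lies at chr2:64681103-64688515 on the plus strand.

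*LGALS8* encodes galectin-8, a tandem-repeat galectin with a pair of sugar-binding domains that marks broken endosomes and lysosomes. Its levels were 30.9, 29.2 and 32.7 TPM in shEV and 20.5, 33.3 and 32.6 TPM in shPAX2. One KD library, replicate 1, was low and the remaining KD libraries lay in or just above the control range. The means were 30.9 ± 1.77 TPM and 28.8 ± 7.21 TPM (SD, n = 3 each), and the log2 fold change of -0.13 ± 0.20 (SE) became 0.09 without that library. The coefficient of variation in shPAX2 was 25.0%, against 5.73% in shEV. The gene, at chr1:236681300-236716281 on the plus strand, overlaps *LGALS8-AS1* and *HEATR1* on the opposite strand, and whether the counting used strand is not given in the sources used here.

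The remaining listed members were at the limit of detection in both groups. *LGALS3*, which encodes the chimera-type galectin-3 after which *LGALS3BP* is named, was counted at 1, 0 and 0 reads in the controls and at 0, 2 and 0 reads after KD. A count of 3 reads, taken here as the floor of detection, corresponded to 0.0961 to 0.274 TPM of *LGALS3* in these libraries. *LGALS4*, the gene of an intestinal tandem-repeat galectin, was read 0, 0 and 1 times in shEV and once in each shPAX2 library. *LGALS9*, whose product binds the immune receptor TIM-3, was counted at 2, 2 and 4 reads in shEV and at 3, 0 and 1 after KD, and its reads can be shared with the near-identical copies *LGALS9B* and *LGALS9C*. The *LGALS9* levels, 0.128 to 0.251 TPM in shEV and 0 to 0.111 TPM in shPAX2, did not overlap but rest on at most 4 reads. No fold is given for these genes. Among other family members, *LGALS9C* had 1 read in 1 library, and *CLC*, which encodes galectin-10 of eosinophils, had 1 read in each of 2 shPAX2 libraries.

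On the TPM scale, which is per gene length, the order of the members in shEV was *LGALS1*, then *LGALS3BP* and *LGALSL* with overlapping ranges, then *LGALS8*, then the genes near 0. In shPAX2 the order was *LGALS1*, *LGALSL*, *LGALS8* and *LGALS3BP*, and the ranges of neighbours in this order did not overlap. By the means, *LGALS3BP* thus passed from the second to the fourth place among the 4 members that could be tested. In shEV replicate 3, *LGALSL* was the higher of the overlapping pair. The change of place restates the fall that was known when *LGALS3BP* was chosen. The order of the means was the same after median-of-ratios scaling.

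The galectins without *LGALS3BP* summed to 1310 to 1548 TPM in shEV and 1269 to 1316 TPM in shPAX2. *LGALS1* supplied 91.1% to 93.6% of that sum in shEV and 92.9% to 93.8% in shPAX2. *LGALSL* supplied 5.41% ± 0.986 in shEV and 4.42% ± 0.206 in shPAX2, and *LGALS8* 2.22% ± 0.257 and 2.23% ± 0.536 (SD, n = 3 each). The make-up of the galectin message pool was therefore dominated by 1 gene in every library.

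Ratios within a library do not depend on the library total. For each *LGALS3BP* transcript there were 15.5 ± 0.921 transcripts of *LGALS1* in shEV and 67.4 ± 0.700 in shPAX2 (SD, n = 3 each). The ratio of *LGALSL* to *LGALS3BP* was 0.903 ± 0.124 in shEV and 3.19 ± 0.118 in shPAX2. That of *LGALS8* to *LGALS3BP* was 0.371 ± 0.0255 and 1.61 ± 0.395. In no case did the groups overlap, and shPAX2 replicate 1, low in *LGALS8*, gave the lowest KD ratio at 1.16. Every ratio has *LGALS3BP* as its denominator, a gene chosen on this contrast. The separations therefore repeat its fall, and nothing further is read from them.

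**Figure D2:**
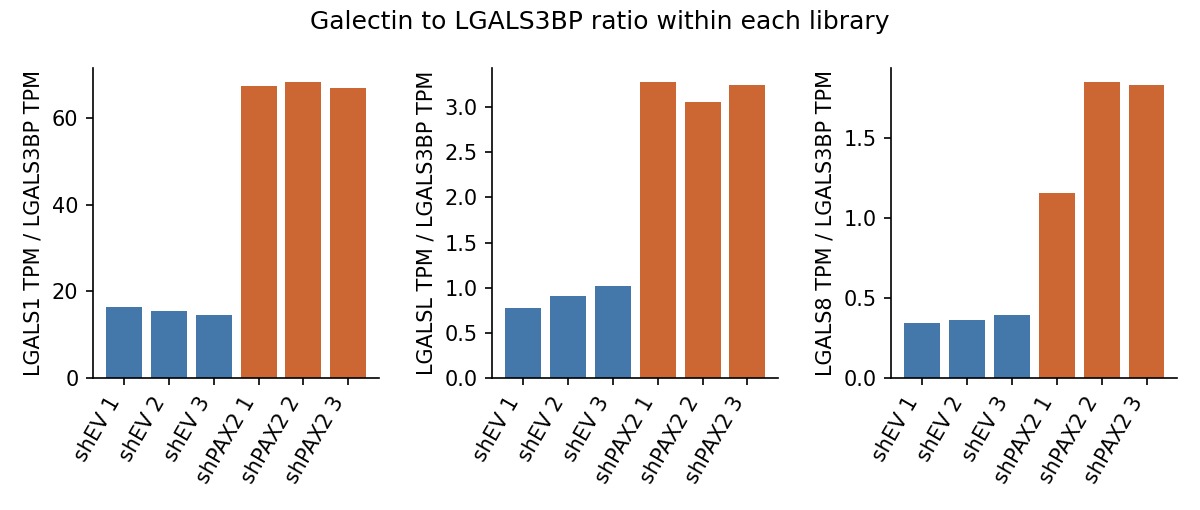
Ratio of the TPM of *LGALS1*, *LGALSL* and *LGALS8* to the TPM of *LGALS3BP* in each library, as 1 bar per library on axes that start at 0 (shEV blue, shPAX2 orange). The shPAX2 libraries lie above the shEV libraries for all 3 galectin genes, which share the denominator *LGALS3BP*. For *LGALS1* they are at 66.7 to 68.1 against 14.5 to 16.4.

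Of the 4 members tested, 1 (*LGALS3BP*) had an adjusted p under 0.05 together with a log2 fold change of at least 1 in either direction, as did 4.54% of all genes tested (1.43% higher and 3.11% lower in shPAX2). With no fold limit, 2 members passed, against 42.8% of all genes, of which 12.2% were higher and 30.5% lower. Separate ranges in the 2 groups were seen for 2 of the tested members (*LGALS3BP* and *LGALSL*) and for 54.9% of all genes. Since the members were chosen on this contrast, nothing is read from these counts.

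The direction of calls without a fold limit leaned on the scaling. On TPM, 28.6% of such calls over all genes were higher in shPAX2, and after median-of-ratios scaling 52.6% were, with the median of all genes moving from -0.10 to 0.0053. For calls with the fold limit the share higher was 31.4% and 40.0%. For the lists that follow, whose genes were gathered around the biology of these members with earlier results of these data known, the count after that scaling is given beside the main one, adjusted p-values are those of limma over all 13163 genes, and list medians compare with -0.10.

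Galectin-binding glycans are built on N-glycan branches. Of 12 tested N-glycan branching genes none passed the fold limit. With no fold limit 4 were higher and 6 lower, or 5 and 6 after median-of-ratios scaling, and the list median was -0.25. The genes that fell included *MAN2A1*, which trims mannose before complex branches are added, from 28.6 ± 1.75 to 15.8 ± 1.10 TPM (log2 fold change -0.84, adjusted p = 5.41e-05). *FUT8*, the core fucosyltransferase, fell by 0.66 on the log2 scale. *MAN1C1* fell from 5.49 to 3.03 TPM. *MGAT5B* rose from 1.36 to 2.81 TPM, *MAN1B1* from 38.4 to 46.8 TPM and *MGAT2* from 52.1 to 62.3 TPM. *MGAT5*, chosen after its values were seen because its branch is a favoured ligand of galectin-3, fell from 20.7 ± 0.848 to 15.3 ± 0.652 TPM (log2 fold change -0.43, adjusted p = 0.00108).

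LacNAc units and O-glycans are extended by galactosyl-, N-acetylglucosaminyl- and N-acetylgalactosaminyltransferases. Among 19 tested genes of this list, *B4GALT6*, a galactosyltransferase best known for lactosylceramide, was the 1 gene past the fold limit and rose from 13.4 ± 1.01 to 29.3 ± 3.46 TPM (log2 fold change 1.10, adjusted p = 5.01e-05). With no fold limit 1 was higher and 2 lower, or 6 and 2 after the other scaling, with a list median of -0.05. Without shPAX2 replicate 1 the counts were 4 and 2 and the median was 0.05, and without shEV replicate 1 the counts were 2 and 3. *GCNT4* and *B4GALT4* were the genes that fell, and *B4GALT2*, the most abundant, was at 75.7 ± 0.622 TPM in shEV and 84.3 ± 6.23 TPM in shPAX2 and did not pass. *B4GALT1*, a main maker of LacNAc, chosen after its values were seen, was at 6.96 ± 0.577 TPM in shEV and 6.04 ± 0.0399 TPM in shPAX2 and did not pass the test.

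Sialic acid can cap galactose, and the alpha-2,6 linkage blocks the binding of galectin-1. In the capping list of 15 tested genes, none passed the fold limit, 4 were higher and 6 lower without it, and the median was -0.16. After median-of-ratios scaling the counts were 5 and 3. *ST6GAL1*, which makes the alpha-2,6 linkage, fell from 13.9 ± 1.38 to 7.27 ± 0.347 TPM (log2 fold change -0.89, adjusted p = 0.000114). *ST3GAL1* fell to 48.8% and *ST3GAL5* to 57.2% of the control level. *NEU1*, the lysosomal sialidase, rose from 9.41 ± 0.63 to 14.1 ± 1.60 TPM, and *SLC35A1*, the Golgi carrier of CMP-sialic acid, rose from 20.2 to 25.0 TPM. *CMAS*, which activates sialic acid, rose by 0.25 on the log2 scale, and *NANS*, the most abundant gene of the list, was at 121 ± 10.7 TPM in shEV and 110 ± 1.15 TPM in shPAX2 and did not pass.

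The proteins that galectins and *LGALS3BP* bind formed a list of 34 listed genes, of which 21 were tested. Past the fold limit 1 was higher and 4 were lower. With no fold limit 3 were higher and 11 lower, or 5 and 10 after median-of-ratios scaling, with a list median of -0.28. Besides *EGFR*, the genes that rose were *TFRC*, the transferrin receptor gene, by 0.35 and *LAMP1*, a LacNAc-rich lysosomal membrane protein gene, by 0.23 on the log2 scale, and the call of *LAMP1* was lost without shEV replicate 2 or shPAX2 replicate 2. *EGFR*, a receptor that galectins can hold at the cell surface, rose from 5.87 ± 0.354 to 20.9 ± 1.22 TPM (log2 fold change 1.75, adjusted p = 9.96e-07). *LAMB1*, a laminin chain, fell from 31.2, 32.0 and 33.0 TPM in shEV to 3.77, 3.95 and 3.77 TPM in shPAX2 (log2 fold change -2.91, adjusted p = 2.99e-08).

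*NRP1*, the neuropilin-1 gene and a partner of galectin-1, was covered by 223, 369 and 473 reads in shEV but by 2, 3 and 4 after KD. At so few reads its log2 fold change depended on the fit. It was -3.90 here, -3.04 with a pseudocount of 1 and -7.44 in the fit to recovered reads. *ITGA1*, an integrin chain that binds collagen and laminin, was covered by 49, 104 and 85 reads in shEV against 6, 7 and 7 after KD. *NRP1* and *ITGA1* passed the 0.5 TPM filter only through shEV, so only a fall could be called. *COL5A1*, the remaining gene past the fold limit and named after its values were seen, fell from 17.8 ± 0.759 to 6.34 ± 1.26 TPM. The tetraspanins *CD9* and *CD63*, which mark exosomes, fell to 56.8% and 64.2% of their control levels and were likewise named after their values were seen. *BSG*, the most abundant gene of the list, was at 336 ± 17.3 TPM in shEV and 357 ± 30.7 TPM in shPAX2 and did not pass.

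Galectin-8, galectin-3 and galectin-9 act in the response to lysosome damage. Of 35 tested genes of this response, none passed the fold limit, 2 were higher and 12 lower with no limit, and the median was -0.06. Without shEV replicate 3, shPAX2 replicate 2 or shPAX2 replicate 3 the counts were 2 and 7. After median-of-ratios scaling 10 were higher and 5 lower, so the direction of the list depended on the scaling. *OPTN*, an autophagy receptor, fell from 39.0 ± 0.897 to 23.8 ± 1.54 TPM (log2 fold change -0.71, adjusted p = 6.07e-05), and *LAMTOR3* and *LAMTOR2*, which anchor mTORC1 at the lysosome, fell by 0.65 and 0.52 on the log2 scale. The genes that rose were *MAP3K7*, the TAK1 kinase gene, from 39.8 ± 2.26 to 53.0 ± 1.67 TPM (log2 fold change 0.41, adjusted p = 0.000996), and *VPS4A*, an ESCRT ATPase gene, from 80.2 ± 1.69 to 99.3 ± 4.10 TPM (log2 fold change 0.30, adjusted p = 0.00274). *VCP*, the most abundant gene of the list, was at 199 ± 12.1 TPM in shEV and 236 ± 24.7 TPM in shPAX2 and did not pass. *CALCOCO2*, the receptor that galectin-8 recruits, was singled out for that role and stood at 43.3 ± 1.63 TPM in shEV and 42.0 ± 1.38 TPM in shPAX2 (log2 fold change -0.05, adjusted p = 0.563).

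**Figure D3:**
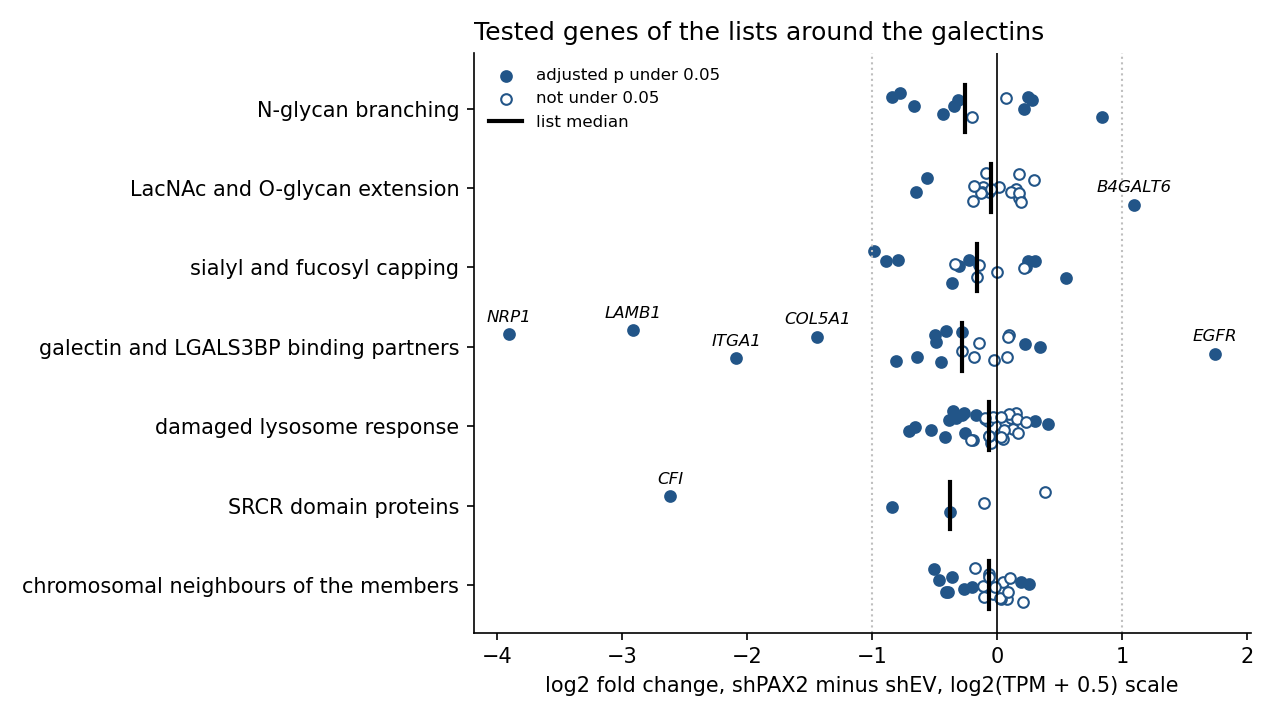
Log2 fold change, shPAX2 minus shEV on log2(TPM + 0.5), of the tested genes of each list, with 1 point per gene, filled where the limma adjusted p was under 0.05, a thick line at each list's median and dotted lines at the fold limit. The named genes lie past the fold limit, and 5 of these 7 are lower in shPAX2, led by *NRP1* at -3.90.

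Among other proteins with an SRCR domain, the domain that names the family of *LGALS3BP*, 5 genes were tested. None was higher and 3 were lower with no fold limit, or 2 after median-of-ratios scaling. Without any 1 shEV library 3 genes were tested and 1 passed, which was higher without replicate 1 and lower without replicate 2 or 3. *CFI*, complement factor I, was past the fold limit, with 53, 46 and 55 control reads and 2, 4 and 2 after KD. Its log2 fold change was -2.62 here, -1.93 with a pseudocount of 1 and -4.76 in the fit to recovered reads. *CORIN* fell from 0.734 to 0.188 TPM, with 17, 32 and 37 reads in shEV and 16, 11 and 9 after KD. Its log2 fold change was -0.84 here and ran from -1.93 to -0.54 over the alternatives that kept every library. *CFI* and *CORIN* passed the 0.5 TPM filter only through shEV, so only a fall could be called. *LOXL2*, a matrix cross-linking enzyme, fell from 31.4 ± 3.35 to 24.1 ± 3.11 TPM, and that call was lost after median-of-ratios scaling.

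Interferon-stimulated genes were lower as a list. Of 25 tested genes, 6 passed the fold limit, all lower. With no limit 21 were lower and none higher, or 20 and none after median-of-ratios scaling. The 6 calls became 4 with a pseudocount of 1 or the filter at 5 TPM, and 5 without any 1 shEV library. Among the 6, *IFI44*, named after its values were seen, had 9, 20 and 16 reads in shEV and 10, 1 and 3 after KD. *IFI44* passed the 0.5 TPM filter only through shEV, so only a fall could be called. *IFI27*, among the 21, had 3 to 5 reads in every library. The list median was -0.69. *BST2*, which encodes the virus-tethering protein tetherin, was at 147, 139 and 119 TPM in shEV and 49.7, 48.3 and 50.3 TPM in shPAX2 (log2 fold change -1.44, adjusted p = 4.26e-06). *IFI6* was at 50.2, 49.5 and 53.6 TPM in shEV and 12.1, 11.2 and 13.7 TPM in shPAX2 (log2 fold change -2.01, adjusted p = 5.12e-07). *IFITM2* fell from 14.5 ± 1.06 to 3.20 ± 0.282 TPM and *IFITM3*, the most abundant gene of the list, from 712 ± 17.2 to 452 ± 40.5 TPM, with the reservation that the *IFITM* genes are close copies.

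All 25 tested interferon-stimulated genes had a higher log2 fold change than *LGALS3BP*. In the fit to recovered reads 24 of 25 were higher, and the lowest stood at -2.68. With the filter at 5 TPM the comparison covered 19 of these genes, and without any 1 shEV library it covered 24. The added 0.5 TPM shrinks the folds of low genes. On plain TPM means *IFI44* fell to 18.1% of its control level, from 1.10 to 0.200 TPM, against 21.3% for *LGALS3BP*. Since *LGALS3BP* was chosen on this contrast, nothing is read from its place. Whether *LGALS3BP* and the interferon-stimulated genes share a cause was not tested.

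**Figure D4:**
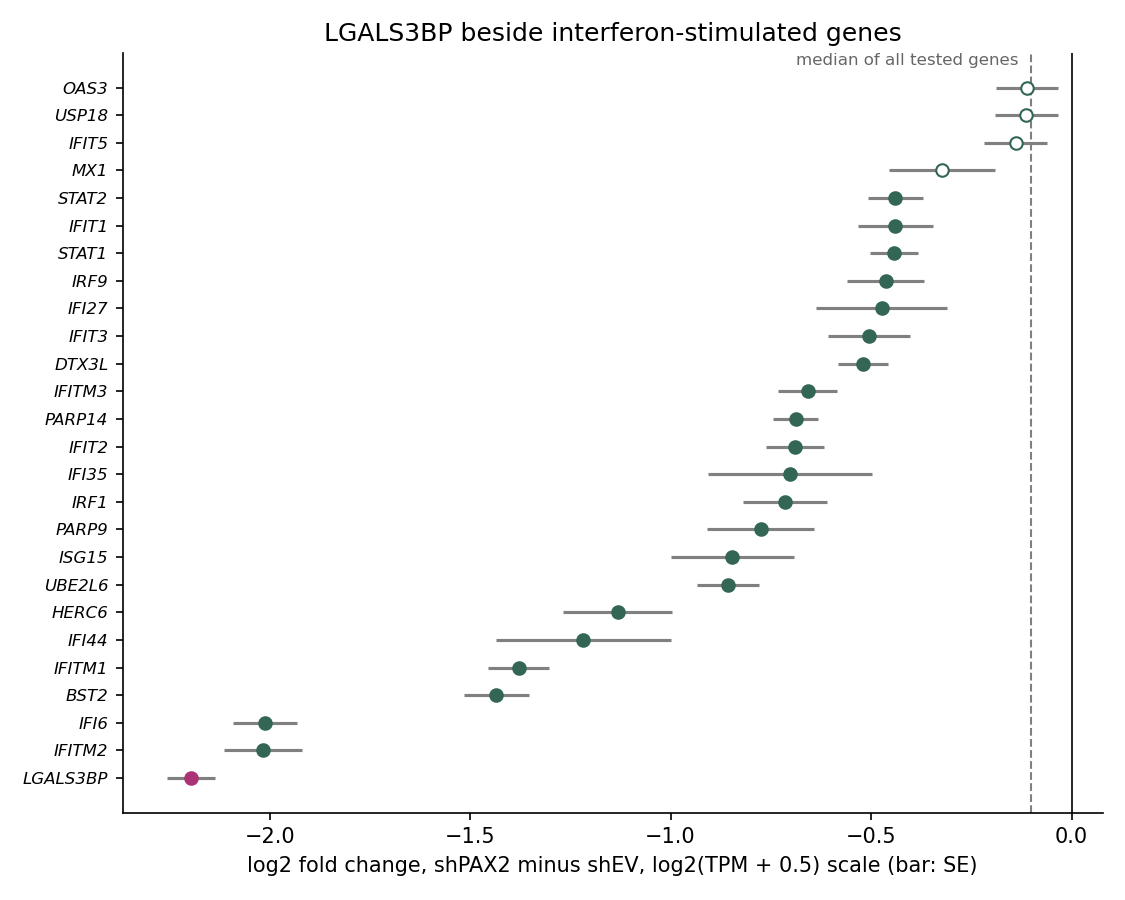
Log2 fold change, shPAX2 minus shEV on log2(TPM + 0.5), of *LGALS3BP* and of the 25 tested interferon-stimulated genes, in order, with bars of 1 SE, filled where the limma adjusted p was under 0.05 (*LGALS3BP*, which has no test, is filled in another colour) and a dashed line at the median of all tested genes. *LGALS3BP*, at -2.20, has the lowest value, followed by *IFITM2* at -2.02 and *IFI6* at -2.01.

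The genes next to the members on the chromosome were compared, with a pair taken on each side. Of 23 tested neighbours none passed the fold limit, and 2 were higher and 7 lower with no limit, or 4 and 3 after median-of-ratios scaling. These counts shifted with each library left out. They were 0 higher and 3 lower without shEV replicate 3 or shPAX2 replicate 2, and 0 and 4 without shEV replicate 1 or shPAX2 replicate 3. Without shEV replicate 2 they were 0 and 8, and without shPAX2 replicate 1 they were 3 and 5. The neighbours past the test were *ERO1LB* (log2 fold change -0.50) near *LGALS8*, *KSR1* (-0.47) next to *LGALS9*, *SERTAD2* (-0.41) near *LGALSL*, and *ACTN4* (0.26) and *HNRNPL* (0.19) near *LGALS4*, with others among the 7 lower ones, and each of these 5 calls was lost in at least 1 alternative. *HNRNPL* was the most abundant, at 210 ± 8.53 TPM in shEV and 241 ± 14.5 TPM in shPAX2. Next to *LGALS3BP*, *CANT1* was at 36.6 ± 1.10 TPM in shEV and 35.0 ± 0.534 TPM in shPAX2 (log2 fold change -0.06, adjusted p = 0.404). *TIMP2*, on the other side, was at 88.4 ± 4.21 TPM and 93.3 ± 3.30 TPM (log2 fold change 0.08, adjusted p = 0.319). *USP36* followed at a log2 fold change of -0.03. The neighbours of *LGALS1*, *PDXP* and *NOL12*, stood at 0.05 and -0.01. These neighbours were singled out by position, and a p that misses the threshold does not show that they were alike in both groups.

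*LGALS3BP* fell into 2 separate sets of libraries, so a likeness to its pattern is mostly a likeness in that step. Pearson's r with *LGALS3BP* over the 6 libraries was taken on log2(TPM + 0.5) among genes with a mean of at least 5 TPM. Of the 10527 genes compared, 183 had an r of at least 0.99. The genes most like *LGALS3BP* were *KITLG*, *GRB10*, *PARP14*, *PLCH1* and *UNC13B*, with r from 0.9989 to 0.9997. *KITLG*, the gene of the KIT ligand, fell from 14.3 ± 0.695 to 0.385 ± 0.00941 TPM and *GRB10* from 12.6 ± 0.399 to 3.02 ± 0.0668 TPM. The *KITLG* level after KD rests on 32, 29 and 20 reads. *UNC13B* fell by much less, from 61.0 ± 1.45 to 42.0 ± 0.546 TPM, and *PARP14* from 41.7 ± 1.33 to 25.7 ± 0.283 TPM. The most unlike were *SYP*, *EVA1C* and *AFF3*, with r from -0.9992 to -0.9989. In shEV, *EVA1C* had 1, 2 and 1 reads and *AFF3* 0, 1 and 2, below the floor of 3 reads. *SYP*, the synaptophysin gene, rose from 5.52 ± 0.687 to 34.9 ± 1.41 TPM.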

How the data were processed

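The AN3CA RNA-Seq libraries, 3 shEV and 3 shPAX2 by their labels, were compared. The authors deposited TPM values for 17471 genes by symbol. The submitters' processing notes name bcl2fastq, STAR, Subread, featureCounts, edgeR and hg19, and the counting tool for these libraries, its strand setting and its versions are not given in the sources used here. Within each gene the deposited TPM values were ratios of whole numbers (relative tolerance 1e-09, 100% of genes), and whole reads, which give the depth, were recovered from them.

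The 13163 genes that reached 0.5 TPM in 3 or more libraries were fitted with limma 3.58.1 in R 4.3.3 (lmFit and trended, robust eBayes) on log2(TPM + 0.5), two-sided, with Benjamini-Hochberg adjustment over all of them. A call needed an adjusted p under 0.05 together with a log2 fold change of at least 1 in either direction. The added 0.5 shrinks fold changes of low genes, and since TPM values sum to a fixed total, abundant genes can shift all others. The 3-read floor covers counting error only.

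Coordinates came from GENCODE release 44 on GRCh37, in which 94.8% of the symbols were found, directly or by an older name. Promoters were RefSeq entries. Named were all members and *PAX2*, up to 3 genes per direction with the largest fold change among those with an adjusted p under 0.05 in each list, the most abundant gene of a list, and the genes whose pattern was most like or unlike that of *LGALS3BP*. Members and lists were chosen with earlier results of these data known. The fits and the recovery were tested on simulated data. Alternatives covered the pseudocount, the filter, scaling, the variance model, a fit to recovered reads (limma voom), the replicate number as a block, and each library left out. The main fit did not treat libraries with the same replicate number as pairs. A single gene of the marker lists was left out and is not reported here.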

Additional observations from a re-analysis of the deposited data

How the results depend on the processing

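The log2 fold change of *LGALS3BP*, a description with no test, was -2.20 in the fit reported, -2.08 after median-of-ratios scaling, -2.13 after quantile normalization, and ran from -2.23 to -2.15 with each library left out. *LGALS1* changed sign after median-of-ratios scaling (0.0068), and *LGALS8* without shPAX2 replicate 1 (0.09).

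Over all genes the calls numbered 598, against 303 among genes at a TPM of at least 5, 5629 with no fold limit, and 484 to 610 with each library left out. The N-glycan branching list went from 0 calls to 1 with a pseudocount of 0.1, after quantile normalization and in the fit to recovered reads. The capping list went from 0 to 1 with a pseudocount of 0.1 and in the fit to recovered reads, and ran from 0 to 1 with libraries left out (1 without shEV replicate 2 or shPAX2 replicate 3). The SRCR list went from 1 to 2 with that pseudocount and that fit, and to 0 with the stricter filter, under which *CFI* was not tested. Leaving out any shEV replicate gave it 0 for the same reason, for a range of 0 to 1. The binding partner list ranged from 3 to 5, and was 3 without any shEV replicate because *NRP1* and *ITGA1* were then not tested.

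The replicate number as a block gave 588 calls over all genes and -2.20 for *LGALS3BP*. Deviations from the group means, over tested genes, correlated between same-numbered libraries at -0.0523, 0.0815 and 0.0014. With 3 libraries per group these values do not settle whether the libraries were paired. Calls without a fold limit on small differences, among them *LAMP1*, *LOXL2*, *ERO1LB*, *KSR1* and *SERTAD2*, were lost under some settings, and the cause was not tested. Genes with a few reads in shPAX2 have no firm fold, and depth limits *LGALS3*, *LGALS4* and *LGALS9* to a floor.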
